A study of Homo sapiens with 18 samples.

Results

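Fanconi anemia (FA) and homologous recombination (HR) genes were selected by name: 34 of the 36204 gene names carried by the non-control spots of the array. They were measured by 48 probes and 93 spots on each array, and the probe that stood for each gene (the one with the highest mean) was well above background on all 18 arrays for all 34 genes. HT29 is an established line of human colon cancer cells. Its subline HTOXAR3 is resistant to oxaliplatin (OXA) after long exposure to rising doses of the drug. Each line had 3 biological replicates without treatment, with OXA for 24 h, and with OXA plus Curcumin for 24 h, and each of the 18 was profiled on 1 one-colour Agilent array. OXA was given at the IC50 dose of each line, 10 µM for HT29 and 30 µM for HTOXAR3, and Curcumin at 10 µM in both, so a difference between the treated lines also includes a difference in dose. No untreated group carried either agent, 1 resistant subline was profiled, and Curcumin alone was not analysed here. The epithelial markers EPCAM, KRT8, KRT18, CDH1 and VIL1 were above background on all 18 arrays, whereas CDX2 was on 10, GPA33 on 9 and CDH17 on 5. Among markers of other cells, COL1A2 and COL3A1 were above background on 0 arrays and CD14 on 18. Their part in the results was not tested.

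OXA leaves platinum adducts and crosslinks in DNA. In the FA pathway a core complex and the conjugating enzyme UBE2T place ubiquitin on FANCD2 and FANCI, which bring nucleases to a crosslink that has stalled a replication fork. The break that is made is then repaired by HR, in which the end is trimmed, BRCA1 and BRCA2 with their partners and mediator proteins prepare it for strand exchange with an intact copy, and RAD54L and BLM act on the joined molecules. Many of these genes are transcribed mostly while DNA is being replicated, under E2F factors.

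The E2F core TTCCCGC was searched on both strands (GCGGGAA is the other strand) from 250 bases before to 50 bases after the RefSeq start of each gene (GRCh38.p14). Of the 34 genes, 31 matched a promoter in the table, and FANCI, NBN and RAD54B did not. The core was in 13 of 31 (41.9%), against 6.6% of all 27305 promoters and 8.6% of the 15843 of protein-coding genes. The longer forms TTTCCCGC (which holds the core), TTTGGCGC, TTTCGCGC and TTTGCCGC were in 4 of 31 (12.9%), against 3.3% of all promoters. The cell cycle element CHR (TTTGAA or TTCGAA) was in 3 of 31 (9.7%) against 16.6%, and CCAAT in 10 of 31 (32.3%) against 35.7%. Promoters with the core are shown for 4 of the genes called changed with treatment below, from 100 bases before to 20 bases after the start, with the core in capitals. They lie at chr3:10026337-10026456 on the plus strand (FANCD2), chr15:90717246-90717365 on the plus strand (BLM), chr17:61863509-61863628 on the minus strand (BRIP1) and chr1:46247588-46247707 on the plus strand (RAD54L).
FANCD2: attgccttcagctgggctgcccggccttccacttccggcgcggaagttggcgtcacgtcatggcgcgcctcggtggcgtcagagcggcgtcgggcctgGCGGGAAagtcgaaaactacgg
BLM: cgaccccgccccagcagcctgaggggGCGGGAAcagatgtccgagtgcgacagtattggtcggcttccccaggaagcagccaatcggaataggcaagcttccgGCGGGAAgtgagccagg
BRIP1: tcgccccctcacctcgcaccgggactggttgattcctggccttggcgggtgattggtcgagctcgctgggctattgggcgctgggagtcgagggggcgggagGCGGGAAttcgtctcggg
RAD54L: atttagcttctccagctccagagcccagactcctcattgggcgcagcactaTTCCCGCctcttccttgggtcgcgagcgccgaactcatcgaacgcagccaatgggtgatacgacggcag
BLM holds the core at 2 places in this window, and the others at 1. BARD1, FANCC, FANCG, FANCL, RAD51D and RAD52 also hold the core and were called changed with treatment, and are not shown. A match describes letters only. The members with the core and the 18 without it had like median log2 changes on adding Curcumin to OXA, -0.21 against -0.21 in HT29 and -0.24 against -0.20 in HTOXAR3, while the 1211 measured protein-coding genes with the core had -0.09 in both lines and the 12741 without it -0.03 and -0.04. For the combination against untreated the members with the core had -0.12 and those without it -0.06 in HT29, and -0.17 and -0.09 in HTOXAR3.

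The first question was which of these genes responded to treatment. Values are log2 normalised intensities, a log2 change is a difference between the means of 2 groups of 3 arrays, and a gene was called changed at a fold change above 1.2 and a limma p below 0.05 after Benjamini-Yekutieli (BY) adjustment over all gene names. Beside each count stands the share called of all gene names, dim ones included. The probe that stood for a gene was well above background on all 18 arrays for 17463 of 36204 names and all 34 members. Shares over such genes alone were not computed, and the part of brightness in the difference from the members was not tested. In HT29, OXA raised 8 of the 34 genes (23.5%), against 8.33% of all gene names called higher, and lowered 1 (2.94%), against 7.62%. In HTOXAR3, OXA raised 4 (11.8%, against 5.31%) and lowered 1 (2.94%, against 4.94%). The HTOXAR3 count of 5 fell to 1, RAD52, when any 1 of the 6 arrays was left out, and also to 1 with the replicate number as a block. The median log2 change over the members was 0.19 in HT29 and 0.11 in HTOXAR3, beside -0.01 and 0.01 over all gene names. In RNA from whole cultures, more cells in a phase of the cell cycle and more mRNA per cell cannot be told apart.

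With Curcumin added, the balance turned. Against the untreated cells, OXA plus Curcumin raised 4 members (11.8%, against 9.56%) and lowered 7 (20.6%, against 9.02%) in HT29, and it raised 2 (5.88%, against 8.82%) and lowered 7 (20.6%, against 8.64%) in HTOXAR3. Against OXA alone, the combination lowered 9 members (26.5%) in HT29, where 2.39% of all gene names were called lower, and 11 (32.4%) in HTOXAR3, where 4.41% were. By limma it raised 0 members in either line (0 in HT29 and 2 in HTOXAR3 at an unadjusted p under 0.05, and 0 in both with Benjamini-Hochberg adjustment), against 3.14% and 4.43% of all gene names. The median change on adding Curcumin was -0.22 in both lines, with -0.02 over all gene names, and 31 members in HT29 and 30 in HTOXAR3 were below 0. The OXA arrays serve in both the OXA comparison and the Curcumin comparison, so the rise with OXA and the fall with Curcumin of 1 gene are not independent. HT29 and HTOXAR3 share no array. Of the members lowered by adding Curcumin, 6 were called in both lines, which is 66.7% of those in HT29 and 54.5% of those in HTOXAR3, beside 70.1% and 43.9% for all called gene names.

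**Figure D1:**
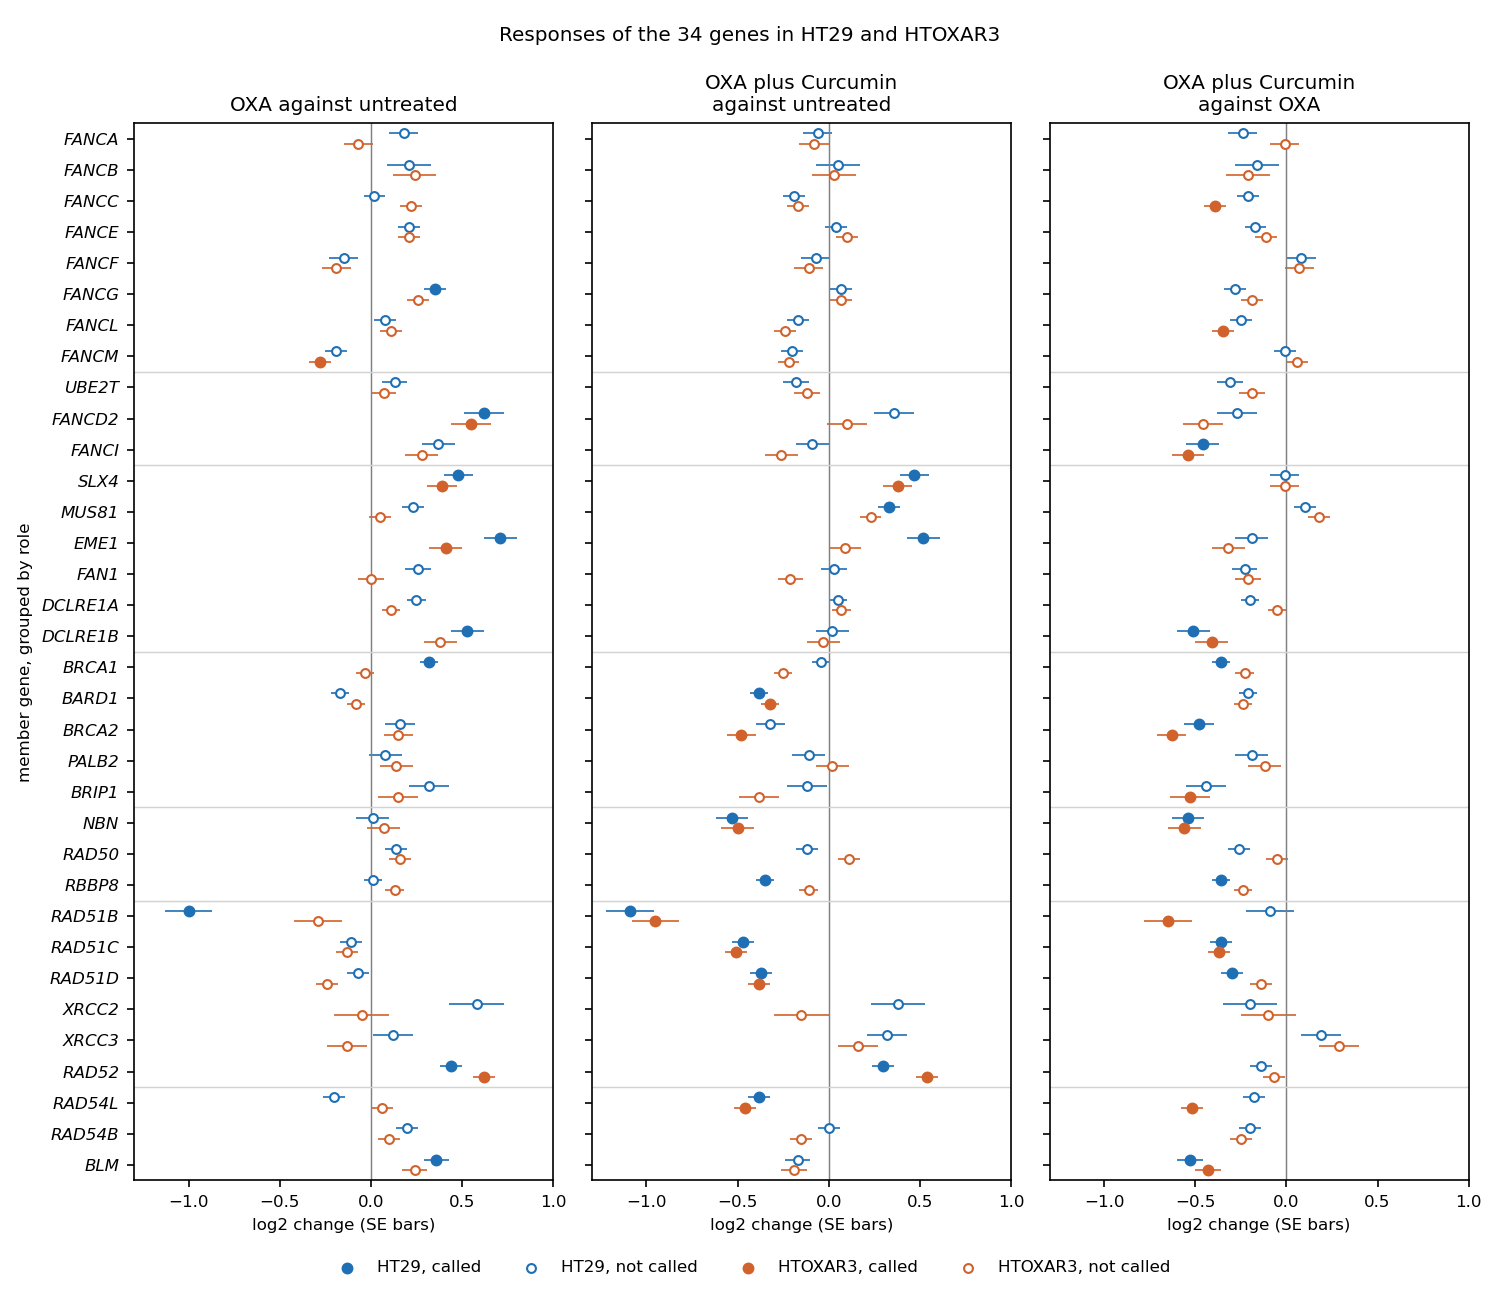
Log2 change (x axis, bars are SE, n = 3 arrays per group) of each of the 34 genes (y axis, grey lines separate roles) for OXA against untreated, OXA plus Curcumin against untreated, and OXA plus Curcumin against OXA, in HT29 (blue) and HTOXAR3 (orange). Filled points passed the test. In the third panel all filled points lie below 0, 9 in HT29 and 11 in HTOXAR3, whereas in the first panel 8 of the 9 filled HT29 points lie above 0.

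Of the 8 listed members of the core complex, read by their main probes, FANCG, a scaffold subunit, was the one called higher with OXA, and it passed the test in HT29 alone. Other probes of FANCA and FANCC that passed with OXA are given further on. In HT29 the FANCG arrays read 13.50, 13.48 and 13.34 untreated, 13.69, 13.79 and 13.88 after OXA, and 13.49, 13.53 and 13.51 after OXA plus Curcumin. In HTOXAR3 they read 13.74, 13.73 and 13.75, then 13.95, 14.00 and 14.04, then 13.81, 13.88 and 13.73. The OXA arrays lay above the untreated ones without overlap in both lines, by 0.35 (SE 0.06, adjusted p = 0.00788) in HT29 and by 0.26 (SE 0.06, adjusted p = 0.0941) in HTOXAR3, where the test was not passed. With Agilent's processed signal the HT29 call was lost (0.27, adjusted p = 0.0505). FANCM, the translocase that anchors the complex on DNA, fell by 0.28 on the log2 scale in HTOXAR3 with OXA (SE 0.06, adjusted p = 0.0438), a call lost with slide as a block (adjusted p = 0.0632). FANCL, the subunit with the ubiquitin ligase activity, fell by 0.35 (SE 0.06, adjusted p = 0.0121) when Curcumin was added in HTOXAR3, and the main probe of FANCC fell by 0.39 (SE 0.06, adjusted p = 0.00438). The second FANCC probe gave 0.27 in that comparison (SE 0.10, adjusted p over all probes = 1.00), and the mean of both probes gave -0.06 (adjusted p = 1.00), so the FANCC call depends on the probe. The main probes of FANCA, FANCB, FANCE and FANCF passed the test in none of the 6 responses, with log2 changes from -0.24 to 0.24. The OXA arrays of FANCE still lay above its untreated ones in both lines, and those of FANCB, FANCC and FANCL did so in HTOXAR3. Those of FANCM lay below its untreated ones in both lines, and those of FANCF did so in HTOXAR3. A second, dimmer FANCF probe did fall with OXA plus Curcumin, with changes of -0.35 and -0.43 in HT29 and HTOXAR3 (SE 0.08, adjusted p over all probes = 0.0383 and 0.00727), where the main probe did not pass.

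FANCD2, the protein that receives the ubiquitin, rose with OXA in both lines. Its arrays read 10.03, 9.99 and 10.13 in untreated HT29, 10.93, 10.64 and 10.46 after OXA, and 10.38, 10.42 and 10.43 after the combination. In HTOXAR3 they were 9.92, 10.06 and 10.01 untreated, 10.49, 10.62 and 10.54 with OXA, and 10.22, 10.20 and 9.86 with the combination. All OXA arrays stood above all untreated arrays of the same line, and the 3 HT29 arrays after OXA were the most spread. The log2 change was 0.62 (SE 0.11, adjusted p = 0.00819) in HT29 and 0.55 (SE 0.11, adjusted p = 0.0306) in HTOXAR3, and the HTOXAR3 call was lost without any 1 array. Within slides the change ran from 0.33 to 0.89 in HT29 and from 0.50 to 0.57 in HTOXAR3. A second, dimmer FANCD2 probe gave 0.53 and 0.51, and on adding Curcumin in HTOXAR3 it gave -0.46 (SE 0.08, adjusted p over all probes = 0.00872), where the main probe gave -0.46 with SE 0.11 and did not pass (adjusted p = 0.125). Another FANCD2 probe near the background (mean 5.76) gave 0.31 and 0.68 with OXA (SE 0.17) and did not pass.

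FANCI, the partner of FANCD2, was lower with Curcumin. In HT29 it read 13.29, 13.27 and 13.21 untreated, 13.48, 13.61 and 13.79 after OXA, and 13.29, 13.14 and 13.08 after the combination. In HTOXAR3 it read 13.44, 13.39 and 13.52, then 13.78, 13.61 and 13.80, then 13.21, 13.29 and 13.07. No combination array reached the lowest OXA array in either line, and the fall was 0.46 in HT29 (SE 0.09, adjusted p = 0.0388) and 0.54 in HTOXAR3 (SE 0.09, adjusted p = 0.00753). In HTOXAR3, where same-numbered arrays shared a slide for this comparison, the adjusted p was 0.0640 with the replicate number as a block. In HT29 the adjusted p was 0.0747 with slide as a block and 0.214 with the replicate block. UBE2T passed the test in no response, its largest change being -0.31 on adding Curcumin in HT29 (SE 0.07, adjusted p = 0.138).

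Nucleases and their scaffold held 3 of the 8 genes raised by OXA in HT29, EME1, SLX4 and DCLRE1B. EME1, the partner subunit of the MUS81 nuclease, read 8.44, 8.21 and 8.47 in untreated HT29, 9.01, 9.18 and 9.05 after OXA, and 8.76, 9.0 and 8.91 after the combination. The HTOXAR3 values were 8.48, 8.33 and 8.45 untreated, 8.82, 8.77 and 8.91 after OXA, and 8.59, 8.49 and 8.46 after the combination. The treated HT29 arrays all lay above the untreated ones, while in HTOXAR3 the combination arrays returned close to them. EME1 rose with OXA by 0.71 in HT29 (SE 0.09, adjusted p = 2.54e-04) and by 0.41 in HTOXAR3 (SE 0.09, adjusted p = 0.0358), and with the combination it rose by 0.52 in HT29 (SE 0.09, adjusted p = 0.00352) but gave 0.09 in HTOXAR3 (SE 0.09, adjusted p = 1.00). The call for OXA in HTOXAR3 was lost without any 1 array and with slide as a block (adjusted p = 0.0887). The difference between the lines in the response to the combination, -0.42 (SE 0.12), did not pass the test (adjusted p = 0.933). MUS81 itself read 11.88, 11.80 and 11.88 in untreated HT29, 12, 12.11 and 12.14 after OXA, and 12.20, 12.13 and 12.21 after the combination. The HTOXAR3 arrays were 11.63, 11.71 and 11.76, then 11.71, 11.79 and 11.76, then 11.95, 11.92 and 11.91. The combination arrays lay above the untreated ones in both lines, by 0.33 in HT29 (SE 0.06, adjusted p = 0.00455), which passed, and by 0.23 in HTOXAR3 (SE 0.06, adjusted p = 0.0681), which did not.

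SLX4 is the scaffold on which these nucleases assemble. It read 10.25, 10.37 and 10.13 in untreated HT29, 10.62, 10.77 and 10.79 after OXA, and 10.66, 10.71 and 10.80 after the combination. The HTOXAR3 arrays were 10.50, 10.50 and 10.47, then 10.89, 10.87 and 10.87, then 10.90, 10.98 and 10.74. Every treated array exceeded every untreated array of its line, and SLX4 stayed at its OXA level when Curcumin was added (-0.01 in both lines, SE 0.08). Its rises were 0.48 and 0.39 with OXA in HT29 and HTOXAR3 (SE 0.08, adjusted p = 0.00306 and 0.0248) and 0.47 and 0.38 with the combination (SE 0.08, adjusted p = 0.00287 and 0.0170). In HTOXAR3 the call for OXA was lost without any 1 array.

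DCLRE1B, the Apollo nuclease of crosslink repair and telomeres, behaved otherwise. In HT29 it read 8.37, 8.31 and 8.33 untreated, 8.84, 8.87 and 8.89 after OXA, and 8.35, 8.44 and 8.27 after the combination. Its HTOXAR3 arrays gave 8.34, 8.59 and 8.48, then 8.77, 8.99 and 8.80, then 8.49, 8.56 and 8.28. The OXA arrays were the highest of each line and the combination arrays overlapped the untreated ones. DCLRE1B rose by 0.53 with OXA in HT29 (SE 0.09, adjusted p = 0.00310), with 0.38 in HTOXAR3 (SE 0.09, adjusted p = 0.0643), and adding Curcumin lowered it by a log2 change of -0.51 in HT29 (SE 0.09, adjusted p = 0.0130) and -0.41 in HTOXAR3 (SE 0.09, adjusted p = 0.0441). With slide as a block neither call on adding Curcumin was kept (adjusted p = 0.0543 and 0.0857). FAN1 and DCLRE1A, the other nucleases of the list, passed the test in no response.

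**Figure D2:**
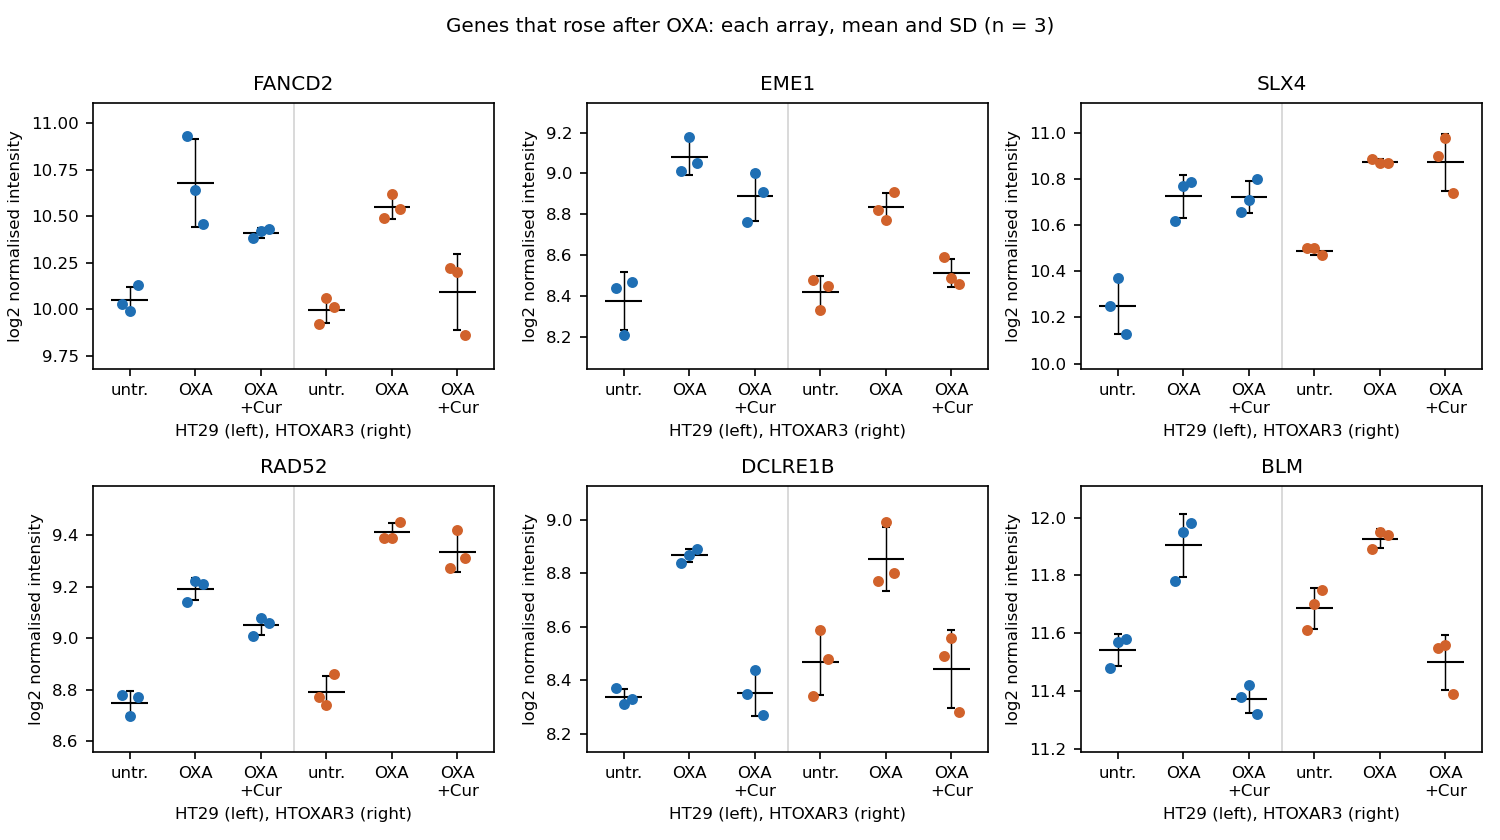
Log2 normalised intensity (y axis) of 6 genes that rose after OXA, on each array (points), with the mean (line) and SD (bars) of 3 arrays, for untreated, OXA and OXA plus Curcumin cultures of HT29 (left, blue) and HTOXAR3 (right, orange). SLX4 and RAD52 stayed near their OXA level with Curcumin, whereas DCLRE1B and BLM came back to the untreated range or below it.

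Among the BRCA proteins and their partners, BRCA1 rose in HT29 alone by the test. It read 11.23, 11.24 and 11.22 untreated, 11.54, 11.56 and 11.54 after OXA and 11.17, 11.21 and 11.20 after the combination, against 11.35, 11.42 and 11.36, then 11.39, 11.32 and 11.34, then 11.20, 11.11 and 11.06 in HTOXAR3. The OXA arrays of HT29 stood apart from both other groups, and those of HTOXAR3 overlapped the untreated ones. The log2 change with OXA was 0.32 in HT29 (SE 0.05, adjusted p = 0.00243) and -0.03 in HTOXAR3 (SE 0.05, adjusted p = 1.00). The difference between these responses, -0.34 (SE 0.07), did not pass the BY test (adjusted p = 0.173) and passed Benjamini-Hochberg adjustment (adjusted p = 0.0156).

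BRCA2, a central mediator of HR, was one of the genes most lowered by Curcumin. It read 9.08, 9.15 and 9.08 in untreated HT29, 9.26, 9.31 and 9.21 after OXA, and 8.78, 8.81 and 8.74 after the combination. In HTOXAR3 the arrays read 9.17, 9.22 and 9.17, then 9.43, 9.25 and 9.33, then 8.82, 8.79 and 8.51. The combination arrays lay below all others of their line. Adding Curcumin changed BRCA2 by -0.48 in HT29 (SE 0.08, adjusted p = 0.00903) and by -0.63 in HTOXAR3 (SE 0.08, adjusted p = 6.42e-04), with within-slide values from -0.51 to -0.46 and from -0.64 to -0.61. Against untreated cells it fell in HTOXAR3 by 0.48 (SE 0.08, adjusted p = 0.00251), and in HT29 the change was -0.32 (SE 0.08, adjusted p = 0.0550).

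BARD1, the partner of BRCA1, was lowered by the combination, with log2 changes of -0.38 in HT29 (SE 0.05, adjusted p = 6.55e-04) and -0.32 in HTOXAR3 (SE 0.05, adjusted p = 0.00359). BRIP1, the helicase that binds BRCA1, read 7.63, 7.54 and 7.45 after OXA and 7.09, 7.16 and 6.77 after the combination in HTOXAR3, where its untreated arrays read 7.54, 7.35 and 7.27. Its combination arrays did not overlap either group, and the change on adding Curcumin was -0.53 (SE 0.11, adjusted p = 0.0319). In HT29 the values were 7.48, 7.37 and 7.21 untreated, 7.72, 7.63 and 7.69 with OXA and 7.20, 7.36 and 7.14 with the combination, a change of -0.44 (SE 0.11) on adding Curcumin that did not pass (adjusted p = 0.154). PALB2, the bridge between BRCA1 and BRCA2, passed no test in the responses, with changes from -0.19 to 0.14.

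NBN, the sensor subunit of the complex that binds and trims broken ends, did not change with OXA by the test and fell with the combination. It read 9.36, 9.47 and 9.59 in untreated HT29, 9.30, 9.54 and 9.60 after OXA, and 8.82, 9.0 and 9.0 after the combination. In HTOXAR3 it read 9.47, 9.49 and 9.62, then 9.56, 9.53 and 9.69, then 9.07, 9.02 and 9.0. Untreated and OXA arrays overlapped in both lines, and all 6 combination arrays lay below them. Against untreated cells NBN fell by 0.53 in HT29 (SE 0.09, adjusted p = 0.00399) and by 0.50 in HTOXAR3 (SE 0.09, adjusted p = 0.00753), and against OXA the changes were -0.54 (SE 0.09, adjusted p = 0.0128) and -0.56 (SE 0.09, adjusted p = 0.00559). RBBP8, the resection factor CtIP, fell in HT29 by 0.35 with the combination (SE 0.05, adjusted p = 0.00129), and in HTOXAR3 its change was -0.11 (SE 0.05, adjusted p = 1.00). RAD50, of the same complex as NBN, passed no test, and its changes ran from -0.26 to 0.16.

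RAD51B, a mediator of HR, had the largest fall among the probes that stood for the 34 genes. Its arrays read 7.08, 7.27 and 7.35 in untreated HT29, 6.04, 6.37 and 6.28 after OXA, and 6.04, 5.99 and 6.39 after the combination. In HTOXAR3 they read 7.82, 7.63 and 7.90 untreated, 7.51, 7.44 and 7.51 with OXA and 6.72, 7.02 and 6.76 with the combination. In HT29 both treated groups lay well below the untreated one and overlapped each other, whereas in HTOXAR3 the arrays stepped down from group to group without overlap. In HT29, RAD51B fell by 1.00 with OXA (SE 0.13, adjusted p = 3.31e-04) and by 1.09 with the combination (SE 0.13, adjusted p = 1.21e-04). The corresponding values in HTOXAR3 were -0.29 (SE 0.13, adjusted p = 1.00) and -0.95 (SE 0.13, adjusted p = 4.89e-04), and adding Curcumin there gave -0.65 (SE 0.13, adjusted p = 0.0233). The difference between the lines in the response to OXA, 0.71 (SE 0.18), did not pass the BY test (adjusted p = 0.548) and was just past Benjamini-Hochberg adjustment (adjusted p = 0.0495). The RAD51B probe that gave these values crosses a splice junction (chr14:68878192-68934895 of GRCh37, a span of 56704 bases). A second RAD51B probe was above background on 0 of 18 arrays, and the mean of both probes gave -0.58 in HT29 and -0.35 in HTOXAR3 for the combination (adjusted p = 0.104 and 1.00).

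RAD51C and RAD51D, which work in complexes with RAD51B, fell with the combination in both lines, RAD51C by 0.47 and 0.51 (SE 0.06, adjusted p = 1.64e-04 and 8.80e-05) and RAD51D by 0.37 and 0.38 (SE 0.06, adjusted p = 0.00123 and 0.00108) in HT29 and HTOXAR3. A second RAD51D probe gave -0.43 and -0.42 (SE 0.08, adjusted p over all probes = 0.00839 and 0.0101), and another gave -0.26 and -0.11 (SE 0.12) and did not pass. RAD51C arrays read 12.33, 12.35 and 12.24 untreated, 12.21, 12.19 and 12.20 with OXA and 11.75, 11.91 and 11.86 with the combination in HT29, where no group overlapped another. XRCC2 gave 0.58 with OXA in HT29 (SE 0.15, adjusted p = 0.128), with untreated arrays from 9.79 to 10.46, and did not pass.

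RAD52, a mediator of strand annealing, rose in both lines and with both treatments. It read 8.78, 8.70 and 8.77 in untreated HT29, 9.14, 9.22 and 9.21 after OXA, and 9.01, 9.08 and 9.06 after the combination. The HTOXAR3 values were 8.77, 8.74 and 8.86, then 9.39, 9.39 and 9.45, then 9.27, 9.42 and 9.31. All treated arrays lay above all untreated arrays. RAD52 rose by 0.44 in HT29 (SE 0.06, adjusted p = 4.49e-04) and by 0.62 in HTOXAR3 (SE 0.06, adjusted p = 4.64e-05) with OXA, and by 0.30 (SE 0.06, adjusted p = 0.0105) and 0.54 (SE 0.06, adjusted p = 5.95e-05) with the combination. A dimmer probe of RAD52 with no RefSeq mRNA gave 0.03 and 0.36 with OXA and -0.06 and 0.40 with the combination (SE 0.10), none of which passed, and the mean of both probes gave 0.24 with OXA and 0.12 with the combination in HT29 (adjusted p = 0.139 and 1.00).

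RAD54L, a motor protein that acts during strand exchange, read 12.36, 12.33 and 12.29 in untreated HT29, 12.18, 12.18 and 12.03 after OXA and 12.02, 11.87 and 11.97 after the combination. In HTOXAR3 it read 12.71, 12.71 and 12.78, then 12.77, 12.79 and 12.80, then 12.31, 12.34 and 12.17. The combination arrays were the lowest of each line without overlap. Against untreated cells RAD54L changed by -0.38 in HT29 (SE 0.06, adjusted p = 0.00388) and -0.46 in HTOXAR3 (SE 0.06, adjusted p = 6.93e-04). BLM, the helicase that dissolves joined DNA molecules, read 11.48, 11.57 and 11.58, then 11.78, 11.95 and 11.98, then 11.38, 11.42 and 11.32 in HT29. The HTOXAR3 arrays read 11.61, 11.70 and 11.75, then 11.89, 11.95 and 11.94, then 11.55, 11.56 and 11.39. OXA arrays were the highest and combination arrays the lowest in both lines. BLM rose by 0.36 with OXA in HT29 (SE 0.07, adjusted p = 0.0136), with 0.24 in HTOXAR3 (SE 0.07, adjusted p = 0.263), and adding Curcumin changed it by -0.53 (SE 0.07, adjusted p = 0.00199) and -0.43 (SE 0.07, adjusted p = 0.00619). RAD54B passed no test in the responses.

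**Figure D3:**
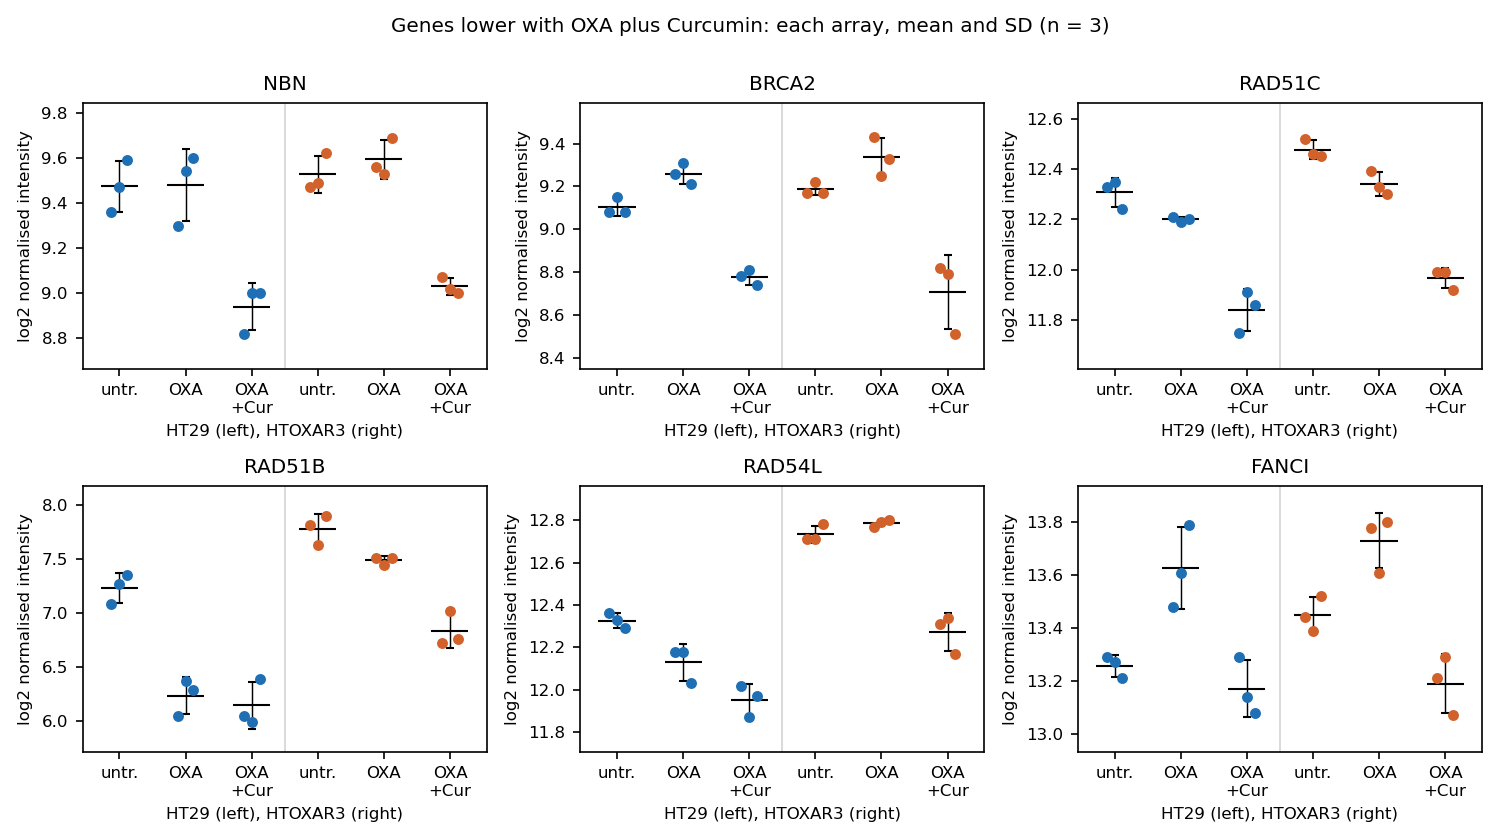
Log2 normalised intensity (y axis) of 6 genes that were lower with OXA plus Curcumin, on each array (points), with the mean (line) and SD (bars) of 3 arrays, for untreated, OXA and OXA plus Curcumin cultures of HT29 (left, blue) and HTOXAR3 (right, orange). NBN, BRCA2 and RAD51C were lowest with the combination in both lines, while RAD51B in HT29 was already low with OXA alone.

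Whether the lines responded differently was tested as an interaction of line and treatment. By limma with BY adjustment, 0 of the 34 genes passed for OXA (1.01% of all gene names did), 0 for the combination (0.856%) and 0 for adding Curcumin (0.135%). At an unadjusted p under 0.05 the counts were 10, 7 and 4, and with Benjamini-Hochberg adjustment 2, 0 and 0, the 2 being BRCA1 and RAD51B. Part of this turned on which probe stood for a gene.

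XRCC3, which pairs with RAD51C, was represented by a bright probe (mean 16.68) that the array annotation ties to an Ensembl transcript and to no RefSeq mRNA. It lies at chr14:104170734-104170793 of GRCh37. The dimmer probe (mean 12.22), at chr14:104163955-104164014, matches RefSeq mRNAs of XRCC3. Their first 22 bases are shown because the values of the gene depend on which of the probes is read, the first stretch being of a kind common in Alu repeats.
XRCC3 bright probe: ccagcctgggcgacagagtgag
XRCC3 mRNA probe: tgcctccacatgctgcctggca
Each stretch was found in 0 other probes of 50599. That search covered probes of the array alone, so it cannot show which transcripts either probe binds. The bright probe read 16.65, 16.89 and 16.60, then 16.65, 16.98 and 16.88, then 17.21, 16.99 and 16.88 in HT29, and 16.53, 16.51 and 16.46, then 16.29, 16.28 and 16.53, then 16.80, 16.57 and 16.60 in HTOXAR3. It passed the test in no response. The mRNA probe read 12.51, 12.48 and 12.30 in untreated HT29, 10.75, 10.93 and 11.00 after OXA, and 10.85, 11.11 and 11.44 after the combination. Its HTOXAR3 arrays gave 12.95, 12.98 and 13.01, then 13.08, 13.07 and 13.25, then 12.67, 12.77 and 12.75. All treated HT29 arrays were more than a log2 unit below their OXA-treated or combination-treated HTOXAR3 counterparts, and in HT29 they did not overlap the untreated arrays.

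Over all 50599 probes, the XRCC3 mRNA probe fell with OXA in HT29 by 1.54 (SE 0.12, adjusted p = 4.26e-06), where 6.93% of probes were called lower, and with the combination by 1.30 (SE 0.12, adjusted p = 1.77e-05), where 8.31% were. In HTOXAR3 the changes were 0.16 (SE 0.12, adjusted p = 1.00) and -0.25 (SE 0.12, adjusted p = 1.00). The difference between the lines was 1.69 for OXA (SE 0.17, adjusted p = 6.80e-04), where 0.862% of probes passed, and 1.05 for the combination (SE 0.17, adjusted p = 0.0491), where 0.670% passed. Within slides 2 and 3 the difference for OXA was 1.67 and 1.46. The difference for OXA passed in all 16 alternatives tried, with values from 1.62 to 1.76, and that for the combination in 3 of 16, with an adjusted p of up to 0.176. These were mostly fits with an array left out, besides another offset, the processed signal and the slide and replicate blocks. A fit of only the groups compared was not run for this probe.

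FANCA and FANCC also had probes that moved apart. For FANCA, a probe of another RefSeq mRNA (chr16:89864767-89864823 of GRCh37) read 10.06, 10.05 and 9.70 in untreated HT29, 9.13, 9.27 and 8.98 after OXA, and 9.27, 9.24 and 9.22 after the combination. The HTOXAR3 arrays of that probe were 9.92, 9.79 and 9.82, then 9.27, 9.40 and 9.20, then 9.62, 9.57 and 9.61. The OXA arrays did not overlap the untreated ones, and the probe fell by 0.81 in HT29 (SE 0.10, adjusted p over all probes = 2.80e-04) and by 0.56 in HTOXAR3 (SE 0.10, adjusted p = 0.0125). Another probe of that same mRNA gave -0.08 and -0.36 (SE 0.11) and did not pass. The main FANCA probe, which matches different RefSeq mRNAs, read 10.59, 10.65 and 10.39, then 10.70, 10.77 and 10.70, then 10.47, 10.49 and 10.50 in HT29. In HTOXAR3 that probe read 10.46, 10.58 and 10.44, then 10.34, 10.38 and 10.56, then 10.46, 10.45 and 10.35. Its changes with OXA, 0.18 and -0.07 (SE 0.08), did not pass. For FANCC, a probe of another RefSeq mRNA (chr9:97872871-97872930) read 7.86, 8.03 and 7.72 in untreated HT29, 8.30, 8.32 and 8.07 after OXA, and 8.27, 8.31 and 8.19 after the combination. Its HTOXAR3 arrays were 7.94, 7.73 and 7.70, then 8.39, 8.43 and 8.27, then 8.53, 8.58 and 8.80. Every treated array lay above the untreated arrays of its line, and the probe rose in HTOXAR3 by 0.58 with OXA (SE 0.10, adjusted p = 0.0148) and by 0.85 with the combination (SE 0.10, adjusted p = 2.81e-04). The main FANCC probe read 10.96, 10.94 and 10.92, then 10.96, 11.02 and 10.89, then 10.67, 10.73 and 10.84 in HT29. In HTOXAR3 the main probe read 10.74, 10.89 and 10.88, then 11.08, 11.03 and 11.06, then 10.67, 10.68 and 10.65. Against untreated HTOXAR3 it gave 0.22 with OXA and -0.17 with the combination (SE 0.06) and did not pass.

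**Figure D4:**
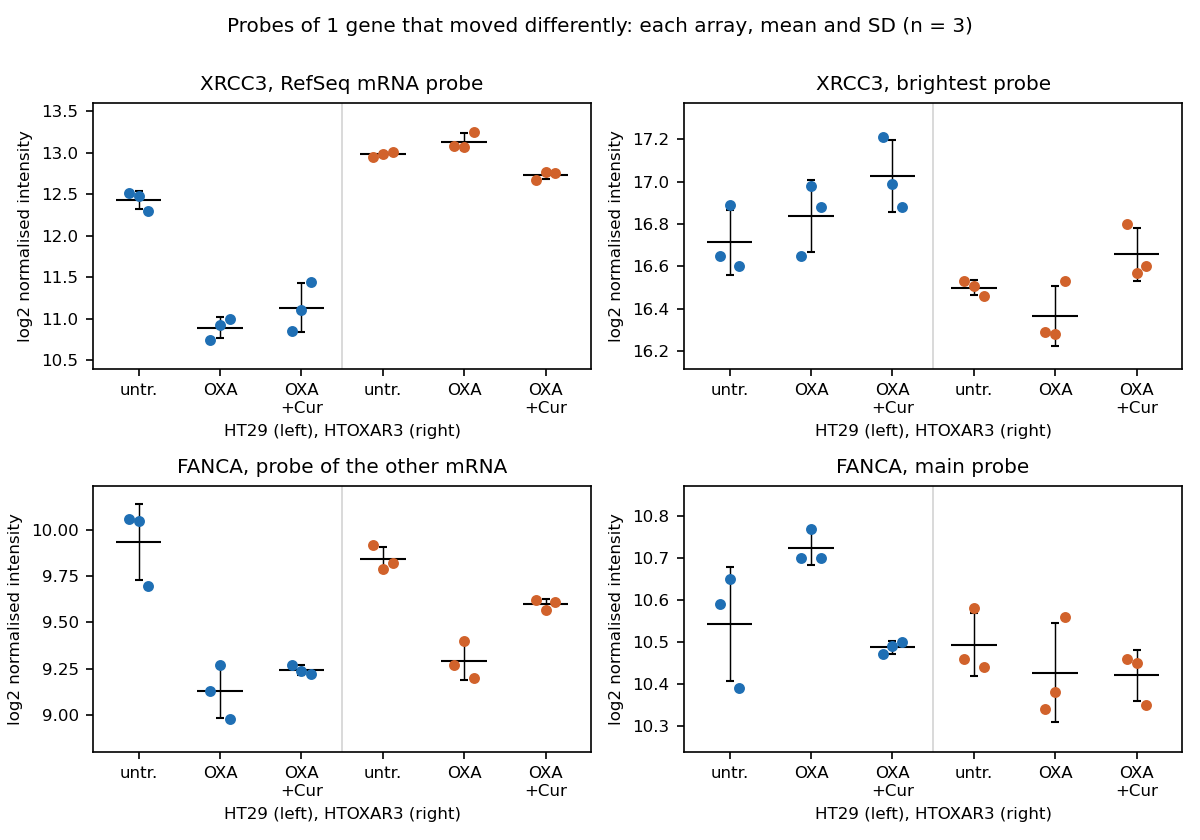
Log2 normalised intensity (y axis) of pairs of probes of XRCC3 and of FANCA on each array (points), with the mean (line) and SD (bars) of 3 arrays, for untreated, OXA and OXA plus Curcumin cultures of HT29 (left, blue) and HTOXAR3 (right, orange). The XRCC3 mRNA probe lay between 10.75 and 11.44 in treated HT29 and between 12.67 and 13.25 in treated HTOXAR3, while all 18 values of the bright XRCC3 probe lay between 16.28 and 17.21.

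Untreated HTOXAR3 and HT29 were compared to see which members differed with acquired resistance. Of the 34 genes, 6 were higher in HTOXAR3 (17.6%, against 6.26% of all gene names) and 2 were lower (5.88%, against 5.28%). The highest difference was that of FANCE, the core subunit that binds FANCD2, whose arrays read 12.31, 12.30 and 12.31 in HT29 and 12.96, 12.98 and 13.03 in HTOXAR3, a difference of 0.68 (SE 0.06, adjusted p = 1.46e-05). RAD51D was higher by 0.46 (SE 0.06, adjusted p = 2.91e-04), RAD54L by 0.40 (SE 0.06, adjusted p = 0.00346) and DCLRE1A, a crosslink nuclease, by 0.32 (SE 0.05, adjusted p = 0.00400). FAN1 was higher by 0.34 (SE 0.07, adjusted p = 0.0251) and FANCG by 0.30 (SE 0.06, adjusted p = 0.0349), and both calls were lost with slide as a block (adjusted p = 0.0769 and 0.107). The mean of the FAN1 probes gave 0.09 (adjusted p = 1.00). FANCF, an adaptor of the core complex, was lower, with 12.31, 12.36 and 12.34 in HT29 and 11.78, 11.75 and 11.75 in HTOXAR3, a difference of -0.57 (SE 0.08, adjusted p = 0.00152), and its second probe gave -0.50 (SE 0.08). BARD1 was lower by a difference of -0.50 (SE 0.05, adjusted p = 8.24e-05), with 10.32, 10.35 and 10.41 against 9.83, 9.88 and 9.86. None of these groups overlapped. FANCE and FANCF held their order between the lines under both treatments as well, with FANCE from 12.32 to 12.64 in treated HT29 and from 13.03 to 13.25 in treated HTOXAR3.

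**Figure D5:**
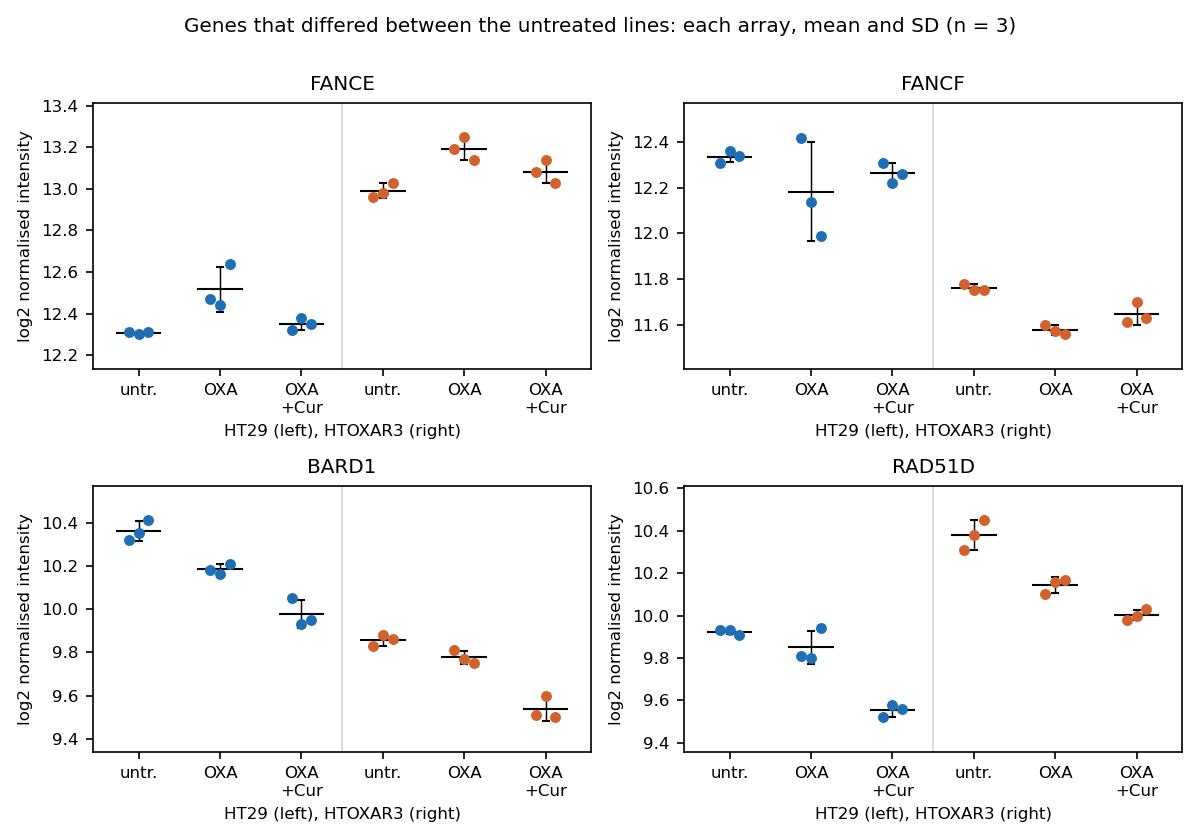
Log2 normalised intensity (y axis) of 4 genes that differed between the untreated lines, on each array (points), with the mean (line) and SD (bars) of 3 arrays, for untreated, OXA and OXA plus Curcumin cultures of HT29 (left, blue) and HTOXAR3 (right, orange). FANCE was higher and FANCF and BARD1 were lower in HTOXAR3 than in HT29.

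Leaving out single arrays changed several of these calls. For OXA in HTOXAR3, RAD52 was the 1 gene of 5 that passed whichever of the 6 arrays was left out, while FANCD2, SLX4, EME1 and FANCM lost the call without any 1 of the 6 (changes from 0.51 to 0.59, 0.38 to 0.39, 0.37 to 0.44 and -0.29 to -0.24). For OXA in HT29, 8 of 9 calls held, and BLM was lost without untreated replicate 1, OXA replicate 2 or OXA replicate 3 (0.32 to 0.42). For the combination against untreated, 10 of 11 held in HT29, RAD52 being lost without untreated replicate 2 or combination replicate 2 (0.27 to 0.32). In HTOXAR3 7 of 9 held, NBN being lost without untreated replicate 3 (-0.52 to -0.45) and SLX4 without any untreated array or combination replicates 1 or 2 (0.33 to 0.45). For adding Curcumin in HT29, the 4 calls that held were BRCA1, RBBP8, RAD51C and BLM. BRCA2 was lost without OXA replicate 2 (-0.50 to -0.45), NBN without OXA replicates 2 or 3 or combination replicate 1 (-0.63 to -0.47), DCLRE1B without these or combination replicate 3 (-0.56 to -0.47), FANCI without any array but OXA replicate 1 (-0.53 to -0.38), and RAD51D, whose change was -0.30, without any 1 of the 6 (-0.32 to -0.25). For adding Curcumin in HTOXAR3, FANCC (main probe), BRCA2, NBN, RAD51C, RAD54L and BLM held. FANCI was lost without replicate 3 of either group (-0.60 to -0.48), FANCL without replicates 1 or 3 of either (-0.38 to -0.31), and DCLRE1B, BRIP1 and RAD51B without any array but combination replicate 2 (-0.47 to -0.33, -0.61 to -0.42 and -0.75 to -0.59). Between the untreated lines FANCG was lost without any 1 array (0.25 to 0.33) and FAN1 without any but HT29 replicate 2 (0.30 to 0.38). All 62 calls kept their sign within every slide that held both groups. The calls were made on these same arrays, so this is a description and not a separate test.

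Genes beside the members were counted from lists of the same pathway and of the cell cycle, to be read against the shares over all gene names, dim ones included. With OXA these were 8.33% higher and 7.62% lower in HT29 and 5.31% and 4.94% in HTOXAR3, and on adding Curcumin 3.14% and 2.39%, and 4.43% and 4.41%. Of 50 other FA and HR genes measured, 14 rose (28%) and 5 fell (10%) with OXA in HT29, and 8 rose (16%) and 3 fell (6%) in HTOXAR3. ERCC1, a subunit of the nuclease that unhooks crosslinks, rose by 1.16 in HT29 (SE 0.06, adjusted p = 6.51e-08) and by 1.09 in HTOXAR3 (SE 0.06, adjusted p = 4.70e-07). FAAP100, a core complex subunit that the array lists as C17orf70, changed by -3.08 in HT29 (SE 0.12, adjusted p = 4.33e-09) and by -0.89 in HTOXAR3 (SE 0.12, adjusted p = 0.00136), a difference between the lines of 2.20 (SE 0.17, adjusted p = 4.90e-05). RTEL1, a helicase that takes apart recombination intermediates, changed by -2.88 and -0.92 (SE 0.13), and FAAP20, listed as C1orf86, which ties the core complex to ubiquitin, fell by 1.66 in HT29 (SE 0.09, adjusted p = 1.45e-07). Their differences between the lines were 1.96 (SE 0.18, adjusted p = 2.48e-04) for RTEL1 and 1.76 (SE 0.13, adjusted p = 3.78e-05) for FAAP20. Adding Curcumin raised 4 (8%) and lowered 10 (20%) of the 50 in HT29 and raised 4 (8%) and lowered 7 (14%) in HTOXAR3, HELB, a brake on end resection, rising by 0.79 and 1.01 (SE 0.11).

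Replication and mitotic genes moved beside the members. Of 45 S-phase and DNA replication genes, 10 rose (22.2%) and 5 fell (11.1%) with OXA in HT29 and 3 rose and 3 fell (6.67% each) in HTOXAR3. Adding Curcumin raised 0 of them and lowered 24 (53.3%, median log2 change -0.39) in HT29, and it raised 0 and lowered 19 (42.2%, median -0.28) in HTOXAR3. MCM7, a subunit of the replicative helicase, changed by -0.59 (SE 0.06, adjusted p = 2.12e-04) and -0.65 (SE 0.06, adjusted p = 5.85e-05). Of 38 G2 and mitosis genes, 25 fell (65.8%) and 0 rose with OXA in HT29 and 22 fell (57.9%) and 2 rose (5.26%) in HTOXAR3 (medians -0.43 and -0.36). Adding Curcumin lowered 2 of these (5.26%) in HT29 and 18 (47.4%) in HTOXAR3. The part of these shifts in the changes of the members was not tested. Of 23 E2F, DREAM and HR transcription regulators, adding Curcumin raised 2 (8.7%) and lowered 4 (17.4%) in HT29 and raised 3 (13%) and lowered 2 (8.7%) in HTOXAR3. Of 20 damage kinases and mediators, 4 rose and 4 fell (20% each) with OXA in HT29, and 1 rose (5%) and 3 fell (15%) in HTOXAR3. Of 27 p53 targets, 3 rose (11.1%) and 5 fell (18.5%) with OXA in HT29, and 6 rose (22.2%) and 4 fell (14.8%) in HTOXAR3.

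Gene length was set beside the changes. Across the 34 genes, whose spans run from 3.29 kb (FANCF) to 863 kb (RAD51B), Spearman's rho of span and log2 change was -0.40 in HT29 and -0.39 in HTOXAR3 for the combination against untreated, and -0.35 and -0.33 without RAD51B. For OXA against untreated it was -0.16 in HT29 and 0.03 in HTOXAR3, and on adding Curcumin -0.25 and -0.47. For the combination over 11699 genes with a span it was -0.07 and -0.05. The points share their arrays, so these are descriptions.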

How the data were processed

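The authors extracted total RNA, labelled it with Cy3 and read one-colour Agilent arrays with Agilent Feature Extraction (10.7.3.1), and the deposited files hold the linear intensity of each spot and of its local background, not yet normalized, with probe positions on GRCh37. A deposited table of log2 values was not used, because its rows carry no gene or probe name. Intensities were corrected with normexp (offset 0, an offset not given in the sources used here) and quantile normalized. Spots flagged as outliers (6641 over all arrays) were set to missing, spots of a probe were averaged, and the probe with the highest mean stood for each of 36204 gene names. Groups were compared in limma 3.58.1 (R 4.3.3) with 1 term for each of 6 groups over 18 arrays. All p-values called adjusted come from limma, by Benjamini-Yekutieli adjustment over all gene names, or over all 50599 probes where a probe is named as such. A call needed an adjusted p below 0.05 and a fold above 1.2. Arrays correlated from 0.985 within groups, 52.4% to 63.6% of non-control spots were well above background, and 3 arrays in a group limit the precision. The authors describe the 3 arrays of a group as biological replicates, and the sample titles number them as replicates.

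Same-numbered arrays deviated together (correlations of 0.117 to 0.242) for OXA against untreated in HT29 and (0.109 to 0.195) for adding Curcumin in HTOXAR3, comparisons in which they shared slides. Slide 1 held 2 arrays of 2 groups, and slides 2 and 3 held 8 arrays each. Members given with every array are the up to 8 largest rises and 8 largest falls among called genes and those whose probes disagree in sign. Others with array values were chosen after their values were seen. The members and gene lists were chosen with earlier results of these data known. Scripts were tested on simulated data. Promoters came from RefSeq (GRCh38.p14) and were searched with Python 3.11.15 and pandas 2.3.3, and plots were drawn with matplotlib 3.10.9. Alternatives were another offset, Agilent's processed signal, the mean of all probes, a filter on dim genes, Benjamini-Hochberg adjustment, a fold of 1.5, slide and replicate blocks, a fit of only the groups compared, each array left out and, chosen after seeing the data, the RefSeq mRNA probe for each gene.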

Additional observations from a re-analysis of the deposited data

Results flagged for a closer look

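The XRCC3 probe that matches RefSeq mRNAs responded differently in the lines, by the test of the difference itself. The response to OXA in HTOXAR3 minus that in HT29 was 1.69 on the log2 scale (SE 0.17, limma adjusted p over all probes = 6.80e-04), from a change of -1.54 in HT29 and 0.16 in HTOXAR3, and the response to OXA plus Curcumin differed by 1.05 (SE 0.17, adjusted p = 0.0491), the probe having fallen by 1.30 in HT29 with a change of -0.25 in HTOXAR3. The difference for OXA passed in 16 of 16 alternatives, whereas that for the combination passed in 3 of 16, with an adjusted p of 0.129 with slide as a block, 0.174 with the replicate block and up to 0.176 with an array left out. A fit of only the groups compared was not among these alternatives. The bright XRCC3 probe showed no such difference by the test, and why the probes differ was not tested.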

How the results depend on the processing

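Of 62 calls over the 10 comparisons, none changed sign under the alternatives run; 61 were kept with an offset of 50 (FANCM with OXA in HTOXAR3 was lost), 58 with the processed signal (lost were FANCG with OXA in HT29, FANCM and EME1 with OXA in HTOXAR3, and BRIP1 on adding Curcumin in HTOXAR3), 55 with the mean of all probes, 62 with the filter on dim genes, with Benjamini-Hochberg adjustment and with the RefSeq mRNA probe, 55 with slide as a block (lost were FANCM and EME1 with OXA in HTOXAR3, FANCI and DCLRE1B in HT29 and DCLRE1B in HTOXAR3 on adding Curcumin, and FANCG and FAN1 between the untreated lines), 51 with the replicate block, 9 at a fold of 1.5 and 3 when only the groups compared were fitted, which leaves few arrays for the spread. At a fold of 1.5, the genes called numbered 3 for OXA in HT29 and 1 in HTOXAR3, 1 in each line for the combination, 0 in HT29 and 2 in HTOXAR3 for adding Curcumin, and 1 between the untreated lines. With only the groups compared they numbered 0 and 0, 0 and 1, 0 and 0, and 2, in that order. For OXA in HTOXAR3 the count was 3 with slide as a block and 1 with the replicate block, which left 4 between the untreated lines. The replicate blocks were set within each line, so between the untreated lines that fit reads the difference at replicate 1, with less precision. The calls lost there were FANCG, FAN1, DCLRE1A and RAD54L, and their loss says nothing on a pairing of replicates. For the difference between lines in the response to OXA, 1 gene was called with an offset of 50 (BRCA1), 1 with the filter on dim genes (BRCA1), 1 with the mean of all probes (XRCC3), 1 with the RefSeq mRNA probe (XRCC3) and 2 with Benjamini-Hochberg adjustment (BRCA1 and RAD51B), and for the combination 1 with the RefSeq mRNA probe (XRCC3). The cause of these shifts was not tested. Leaving out 1 array gave 8 to 14 genes for OXA in HT29 (14 without OXA replicate 1), 1 in HTOXAR3, 10 to 11 and 7 to 9 for the combination, 4 to 8 and 6 to 11 for adding Curcumin, 0 for each difference between lines, and 6 to 7 between the untreated lines. With the processed signal the median of all gene names moved to -0.10 and -0.19 with OXA and to -0.15 and -0.18 with the combination, in HT29 and HTOXAR3, where the members' medians were 0.19, 0.15, -0.09 and -0.10.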
